A study of Homo sapiens with 9 samples.

Results

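The genes described here are the nuclear genes of oxidative phosphorylation: the subunits of the 4 respiratory chain complexes and of the ATP synthase that are encoded in the nucleus, in HEK293, an established line of human embryonic kidney cells. They were chosen by symbol alone (NDUF, SDH, UQCR, COX and ATP5 names, leaving out numbered pseudogenes), which found 88 of the 35876 symbols in the deposited table. These were 37 genes of complex I, 4 of complex II, 9 of complex III, 18 of complex IV and 20 of the ATP synthase. The rule also takes in a few genes that are not fixed subunits: the inhibitor ATP5IF1, ATP5S (also called factor B), the supercomplex factor COX7A2L, and the intronless copies UQCRHL and ATP5MGL. NDUFA4 is counted with complex IV, where it works despite its name. A low-count filter left 82 genes to be tested. The other 6 (ATP5MGL, COX4I2, COX6A2, COX7A1, COX7B2 and COX8C) had few or no counts.

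RNA was sequenced from 3 groups with 3 replicates each, in a series on reversible gene knockout switched by a chemical. The Cas9 group carried Cas9, an RNA-guided nuclease, the Cre group carried Cas9 with the recombinase Cre, and the Flpo group carried Cas9 with the recombinase Flpo. All 3 genotype labels share Cas9 and an unexplained prefix, CC, and no label names a chemical treatment, a guide, a promoter or a clone. Nothing in the labels says that replicates were separate cultures, so p-values measure only the spread between these samples, which may be technical.

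In oxidative phosphorylation, complexes I and II pass electrons from NADH and succinate to ubiquinone, complex III passes them on to cytochrome c, and complex IV passes them to oxygen. Complexes I, III and IV pump protons across the inner mitochondrial membrane, and the ATP synthase uses the returning protons to make ATP. Most subunits are encoded in the nucleus and imported, and a small core is encoded by the mitochondrial genome, so the nuclear and mitochondrial parts must be matched. The nuclear factors NRF1 and GABP, the latter of the ETS family, are known activators of many of these genes.

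Depth differed between the groups. Total estimated counts ran from 993902 to 3761779 in the Cas9 libraries, from 213907 to 1701730 in the Cre libraries and from 4989524 to 8833491 in the Flpo libraries, so that the mean Flpo total was 7.93 times the mean Cre total. Cre replicate 2 was the smallest library, with at least 10 counts for only 29 of the 88 genes, against 82 or 83 in each Flpo library and 65 to 82 in the others. On the list of 8 HEK293 and epithelial markers, the keratins KRT8 and KRT18, the mesenchymal filament gene VIM, which HEK293 cells also make, and NEFL had counts in all 9 libraries. CDH2 and NEFM were at 0 in Cre replicate 2, LHX1 was at 0 in Cre replicates 2 and 3, and PAX2 had 1 count in all. This list summed to 753 to 1298 CPM (counts scaled to the library's total alone) in the Cas9 libraries, 683 to 1371 in the Cre libraries and 1247 to 3601 in the Flpo libraries. The extraction text uses the word livers beside HEK293, but the hepatocyte genes FGB and AFP were at 0 in every library and ALB had 5 counts in Flpo replicate 2 and 0 in the others. TF, on the same hepatocyte list of 8, had 9 to 399 counts and APOA1 1 to 10 counts in the 9 libraries. The hepatocyte list summed to 6.76 to 119 CPM. The 5 fibroblast markers summed to 279 to 1082 CPM in the Cas9 libraries, 663 to 8125 in the Cre libraries and 188 to 214 in the Flpo libraries. The 4 muscle markers summed to 71.8 to 360 CPM, 166 to 2124 CPM and 56.9 to 98.0 CPM in the same order, with MYH7 at 0 in 8 libraries. CKM, on the same list, had too few counts to be tested. It had 3, 0 and 2 counts in Cas9 replicates 1, 2 and 3, 0 in each Cre library and 35, 0 and 23 in the Flpo libraries. Between Cre and Flpo, 3 of 4 tested fibroblast markers and 2 of 2 tested muscle markers were called higher in the Cre group. Lower calls were made for 2 of 5 tested genes of the HEK293 and epithelial list, the keratins. Of all tested genes, 6.17% were called higher and 14.3% lower. The summed level of the 5 leukocyte markers was 72.8 to 303 CPM, 152 to 323 CPM and 27.3 to 131 CPM, almost all of it LYZ, with CD3E at 0 throughout. The erythroid markers summed to at most 8.52 CPM in any library. The part of these differences in the results below was not tested.

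Between the recombinase groups, 38 of the 82 tested genes were lower in the Cre group and none was higher (3 at an unadjusted p under 0.05), by edgeR's quasi-likelihood test with a Benjamini-Hochberg adjusted p under 0.05 over all 11905 tested genes. Of all tested genes, 14.3% were called lower and 6.17% higher. All 5 assemblies held called genes: 13 of 37 in complex I, 2 of 4 in complex II, 4 of 9 in complex III, 10 of 13 tested in complex IV and 9 of 19 tested in the ATP synthase. The median log2 fold change of the 82 genes was −1.98, with a range of −5.72 to 1.33, beside −0.34 for all tested genes, and 11 of the 82 were above 0, against 42.7% of all. The largest differences were in SDHB, NDUFB3, ATP5PF, UQCRFS1 and NDUFB6. SDHB and NDUFB3 passed the low-count filter only through the Flpo libraries, where they were high, and so had to differ. Of the other 80 genes, 36 were called lower. Here and below, a gene said to fall was lower in the Cre than in the Flpo group, which does not mean lower than in the Cas9 group. Against Cas9, none of the 82 genes was called in either group, with a median log2 fold change of −1.10 for Cre and 0.86 for Flpo. In bulk RNA, a lower share of the cells that make a transcript and less of it per cell cannot be told apart.

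The count of 38 changed with the scaling, with depth in the model and with single libraries. Without TMM factors (the scaling used throughout, which corrects library totals for composition) 23 genes were called lower and 4 higher, namely ATP5F1D, ATP5S, NDUFA10 and UQCRHL, beside 7.06% lower and 17.1% higher of all tested genes, while the median of all tested genes moved from −0.34 to 0.44. With the log2 library total as a covariate no gene was called, here or among all tested genes. At an unadjusted p under 0.05, 1 of these genes was lower and 4 were higher. No gene was called once Cre replicate 2, Cre replicate 3 or Flpo replicate 1 was dropped, where 0% of all tested genes were called in each case. With these libraries dropped, 42, 41 and 41 of these genes were lower at an unadjusted p under 0.05. Without Flpo replicate 3 the count was 9, beside 3.03% of all tested genes. Without Cas9 replicate 2 it was 21, beside 7.06%. When all libraries were thinned to the total of the smallest, 35 of 73 tested genes were called lower, 30 of them among the 38, beside 14.3% of all tested genes, and the median minus that of all tested genes was −2.10 against −1.64 unthinned. The totals of the Cre and Flpo libraries did not overlap, so what else goes with a library's total cannot be told apart from the group.

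In 36 of the 38, every Cre library lay below every Flpo library, and only ATP5MC3 and NDUFV2 had overlapping groups. Over all 82 genes, 47 were lower without overlap and 4 (ATP5S, NDUFA10, NDUFS1 and UQCRHL) were higher without overlap, where 27.9% and 15.2% of all tested genes were (43.2% in all). Within the Flpo group, replicate 2 was the lowest library for 37 of the 38 called genes. Within the Cas9 group, replicate 1 was the lowest for 38 of the 38, and it lay below all 3 Flpo libraries for each of them. As a description over the 82 genes, the rank correlation of CPM was 0.914 between Cas9 replicate 1 and Cre replicate 1 and 0.917 between Cas9 replicate 3 and Flpo replicate 2, but 0.538 between Cas9 replicates 1 and 3. These points share the same genes and differ in depth.

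**Figure D1:**
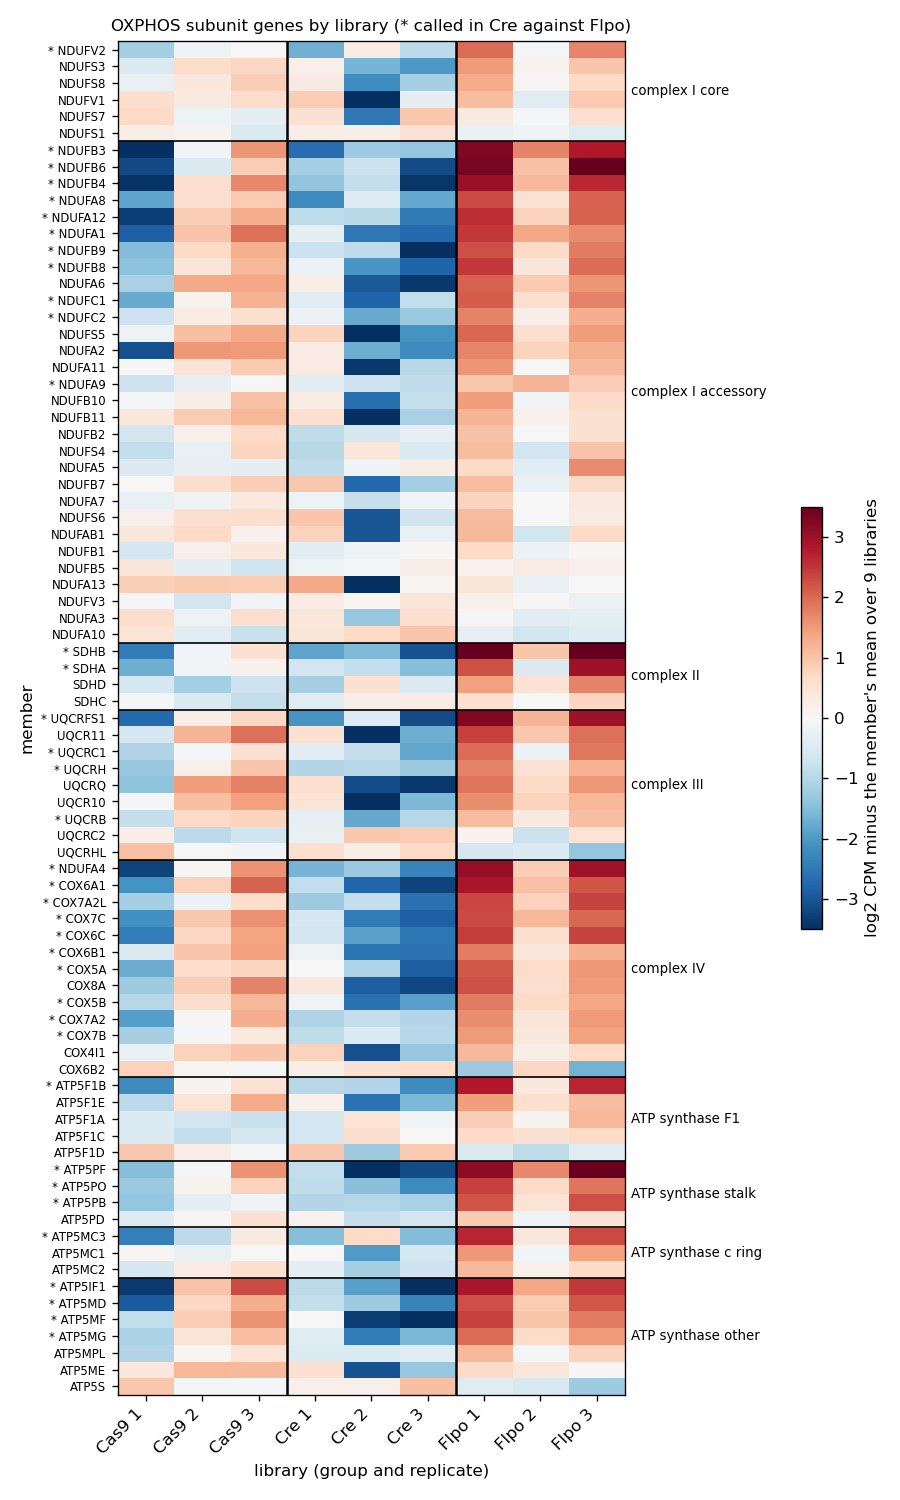
Level of 81 of the tested genes in each of the 9 libraries, as TMM-scaled log2 CPM minus the gene's mean over the libraries (colour scale), grouped by role, with an asterisk on the 37 shown genes called lower in Cre against Flpo. Flpo replicates 1 and 3 are high for nearly all marked genes, and Cas9 replicate 1 and the Cre libraries are low for most of them. Without TMM factors 23 genes were called lower, beside 7.06% of all tested genes.

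Complex I takes electrons from NADH through a peripheral arm of core subunits and pumps protons through a membrane arm. Of its 7 nuclear core subunits, 2 were called lower in the Cre than in the Flpo group, among them NDUFV2. The same held for 11 of the 30 accessory subunits, beside 14.3% of all tested genes. NDUFV2, which carries an iron-sulfur cluster, stood at 9.14, 19.5 and 22.0 CPM in Cas9 replicates 1, 2 and 3, at 6.33, 26.1 and 11.2 CPM in the Cre libraries, and at 86.8, 21.2 and 72.3 CPM in the Flpo libraries, here and for all single genes below scaled with TMM factors. Flpo replicates 1 and 3 were far above the other 7, while Cre replicate 2 lay above Flpo replicate 2. NDUFV2 fell by 2.25 (SE 0.72, edgeR quasi-likelihood adjusted p = 0.0432). NDUFS1, another core subunit, ran from 116 to 141 CPM with Cre and from 73.0 to 91.0 CPM with Flpo, without overlap, and was not called (log2 fold change 0.59, edgeR adjusted p = 0.305).

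The accessory subunits with the largest differences were NDUFB3, NDUFB6 and NDUFB4, all small proteins of the membrane arm. NDUFB3 was at 0, 9.18 and 30.3 CPM in the Cas9 libraries, 0.974, 3.73 and 3.43 CPM in the Cre libraries and 99.4, 34.8 and 73.9 CPM in the Flpo libraries. The Cre values rested on 2, 1 and 4 counts, near or under the floor of 3 counts, below which a count cannot be told from 0. It fell by 4.92 on the log2 scale (SE 1.19, edgeR adjusted p = 0.0202). NDUFB3 passed the low-count filter only through the Flpo libraries, where it was high, and so had to differ. NDUFB6 was at 0.831, 9.18 and 24.0 CPM in the Cas9 libraries, 5.36, 7.47 and 0.858 CPM in the Cre libraries and 137, 27.3 and 154 CPM in the Flpo libraries. Its groups did not overlap between Cre and Flpo, and it fell by 4.72 (SE 1.08, edgeR adjusted p = 0.0185).

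NDUFB4 was at 2.49, 51.1 and 110 CPM in the Cas9 libraries, at 12.7, 18.7 and 2.57 CPM in the Cre libraries and at 280, 75.1 and 216 CPM in the Flpo libraries. The Cas9 libraries spanned both ranges, from the lowest value of all to a value above Flpo replicate 2. NDUFB4 fell by 4.23 (SE 1.08, edgeR adjusted p = 0.0228). It is shown here because its promoter holds 3 matches to the NRF1 motif (GCGCA, any base, then GCGC), searched on both strands, which 16 of the 68 matched promoters of these genes hold (23.5%), against 6.28% of all 27305 promoters in the table (RefSeq, GRCh38.p14, 250 bases before to 50 after each start). The capitals in the following 30-base stretches, read on the + strand at chr3:120596167-120596196, chr3:120596263-120596292 and chr3:120596318-120596347, mark the motif, whose first base lies at −159, −63 and −8 from the start. The third stretch lies in an annotated NDUFB4 exon of GENCODE 29, and the others lie in no exon. A match describes the letters and does not show that a factor bound.
NDUFB4 match 1: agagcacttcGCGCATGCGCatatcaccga
NDUFB4 match 2: ctctgctaacGCGCAGGCGCacttcctgaa
NDUFB4 match 3: cctcagaatcGCGCAGGCGCaattgtgccc

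NDUFC2, another membrane-arm subunit and the complex I gene with the highest mean CPM, was at 162, 321 and 393 in the Cas9 libraries, 231, 78.4 and 108 in the Cre libraries and 891, 314 and 651 in the Flpo libraries. It fell by 2.14 (SE 0.64, edgeR adjusted p = 0.0363), and the Cas9 range crossed both others. NDUFC2 shares exons with a readthrough gene on the same strand and with THRSP on the other, and the use of strand in counting is not given in the sources used here, so its count is uncertain. NDUFA10, an accessory subunit, was at 161, 90.1 and 66.8 CPM in the Cas9 libraries, 155, 187 and 226 CPM in the Cre libraries and 94.5, 74.4 and 84.3 CPM in the Flpo libraries, without overlap. It was not called, with a log2 fold change of 1.16 (SE 0.47, edgeR adjusted p = 0.0895).

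Complex II, succinate dehydrogenase, belongs to both the citric acid cycle and the respiratory chain and is the only respiratory complex encoded wholly in the nucleus. Its catalytic pair, SDHA and SDHB, fell in the Cre group relative to the Flpo group, and the membrane anchors SDHC and SDHD were not called. SDHB, the iron-sulfur subunit (chr1:17018722-17054170, minus strand), was at 1.66, 11.5 and 18.0 CPM in the Cas9 libraries, 2.92, 3.73 and 0.858 CPM in the Cre libraries and 174, 24.8 and 165 CPM in the Flpo libraries. The 3 Flpo values were the 3 highest, and the Cre values rested on 6, 1 and 1 counts. Its log2 fold change of −5.72 (SE 1.04, edgeR adjusted p = 0.0167), a 52.8-fold lower level, was the largest among the 82 genes. SDHB passed the low-count filter only through the Flpo libraries, where it was high, and so had to differ.

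SDHA, the flavoprotein that oxidises succinate (chr5:218241-256700, plus strand), was at 18.3, 56.8 and 68.0 CPM in the Cas9 libraries, 38, 33.6 and 21.5 CPM in the Cre libraries and 287, 42.4 and 480 CPM in the Flpo libraries. Flpo replicate 2 lay within the Cas9 range and just above the highest Cre value. SDHA fell by 3.13 (SE 0.80, edgeR adjusted p = 0.0229). SDHAP1, an SDHA pseudogene and the most abundant pseudogene symbol of these families, had 7.77, 18.8 and 38 estimated counts in the Cas9 libraries. It had 23.3, 3.67 and 5.47 in the Cre libraries and 228, 15.6 and 505 in the Flpo libraries. These counts are not scaled for depth, so they do not show whether SDHAP1 moved with SDHA. Reads shared between SDHA and its pseudogenes make the count of each uncertain.

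The SDHA promoter is shown because it holds 4 NRF1 motif matches in a regular array, with first bases at −166, −117, −68 and −19, each 49 bases after the one before. The stretches, on the + strand of GRCh38.p14, are chr5:218144-218173, chr5:218193-218222, chr5:218242-218271 and chr5:218291-218320, with the motif in capitals. The first and the second overlap exons of the neighbouring gene CCDC127, and the third and the fourth lie in an annotated SDHA exon of GENCODE 29.
SDHA match 1: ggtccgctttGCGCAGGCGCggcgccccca
SDHA match 2: gtggcatggtGCGCAGGCGCgatgtccccc
SDHA match 3: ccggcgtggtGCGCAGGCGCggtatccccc
SDHA match 4: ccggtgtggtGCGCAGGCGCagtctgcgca

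The anchor SDHC was at 213, 153 and 122 CPM in the Cas9 libraries, 160, 250 and 261 CPM in the Cre libraries and 329, 214 and 363 CPM in the Flpo libraries. Cre and Flpo overlapped, and the log2 fold change was −0.43 (SE 0.49, edgeR adjusted p = 0.514), or 0.37 without TMM factors. SDHD, the other anchor, was at 16.6, 10.9 and 15.4 CPM in the Cas9 libraries, 11.2, 37.3 and 18.0 CPM in the Cre libraries and 70.6, 37.1 and 87.2 CPM in the Flpo libraries. Cre replicate 2 and Flpo replicate 2 were nearly equal, and the log2 fold change of −1.68 (SE 0.58) missed the threshold (edgeR adjusted p = 0.0567). A difference between the catalytic pair and the anchors was not tested.

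**Figure D2:**
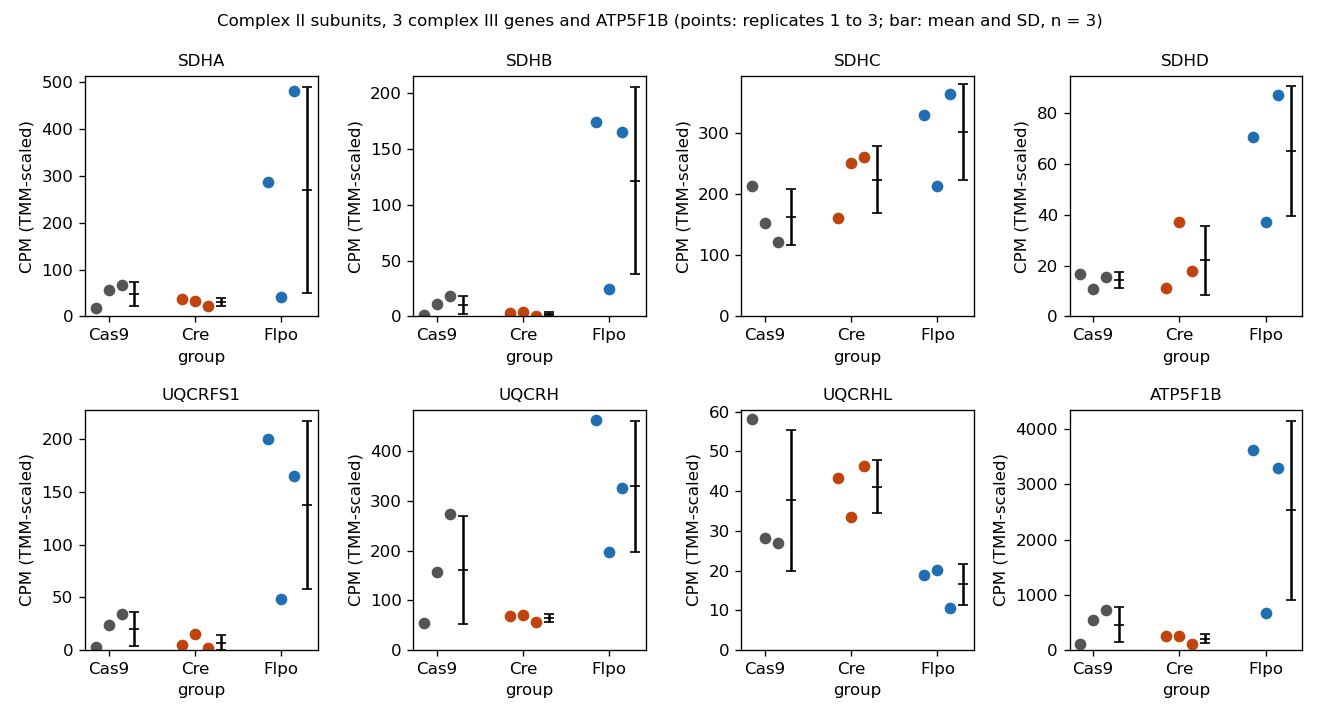
TMM-scaled CPM of the 4 complex II subunits, 3 complex III genes and ATP5F1B, with 1 point per replicate in the order 1 to 3 and a bar for the mean and SD of 3 libraries per group. Flpo replicates 1 and 3 stand far above replicate 2 in SDHA, SDHB and ATP5F1B, SDHC is flatter, and UQCRHL has its 3 lowest values in the Flpo group.

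Complex III, the cytochrome bc1 complex, had 4 genes of 9 called lower, beside 14.3% of all tested genes: UQCRFS1, UQCRC1, UQCRH and UQCRB. UQCRFS1, the Rieske iron-sulfur protein that accepts electrons from ubiquinol, was at 2.49, 24.1 and 34.3 CPM in the Cas9 libraries, 4.39, 14.9 and 1.72 CPM in the Cre libraries and 200, 48.0 and 165 CPM in the Flpo libraries. The 3 Flpo values exceeded the other 6, and the Cre values rested on 9.07, 4.0 and 2.0 estimated counts. UQCRFS1 fell by 4.74 (SE 1.01, edgeR adjusted p = 0.0168). Its promoter holds 1 NRF1 motif match at −31, read here on the minus strand at chr19:29213163-29213192 (GRCh38.p14, in a UQCRFS1 exon of GENCODE 29), with the motif, on the opposite strand to the gene, in capitals.
UQCRFS1 match: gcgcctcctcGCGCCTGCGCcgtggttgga

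UQCRC1, a core protein of complex III, fell by 2.38 (edgeR adjusted p = 0.0318) and UQCRB, a small subunit, by 1.76 (edgeR adjusted p = 0.0487). UQCRQ, the complex III gene with the highest mean CPM, was at 49.9, 365 and 449 CPM in the Cas9 libraries, 196, 14.9 and 12 CPM in the Cre libraries and 490, 216 and 378 CPM in the Flpo libraries. The Cre libraries differed among themselves, with 403 counts in replicate 1 and 4.0 and 14.0 counts in replicates 2 and 3, and UQCRQ was not called (log2 fold change −2.22, SE 1.00, edgeR adjusted p = 0.117). UQCRC2, the partner of UQCRC1, had a log2 fold change of 0.58 (edgeR adjusted p = 0.422).

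UQCRH, the acidic hinge protein near the cytochrome c site, and its intronless copy UQCRHL had fold changes of opposite sign, of which only that of UQCRH passed the test. UQCRH was at 54.8, 156 and 272 CPM in the Cas9 libraries, 67.7, 70.9 and 55.8 CPM in the Cre libraries and 463, 198 and 326 CPM in the Flpo libraries. The Cre libraries were low and even, without overlap with Flpo, and UQCRH fell by 2.35 (SE 0.62, edgeR adjusted p = 0.0250). UQCRHL was at 58.2, 28.1 and 26.8 CPM in the Cas9 libraries, 43.4, 33.6 and 46.3 CPM in the Cre libraries and 18.8, 20.2 and 10.7 CPM in the Flpo libraries. All Cre values were above all Flpo values, but the log2 fold change of 1.33 (SE 0.52) was not called (edgeR adjusted p = 0.0805). The coding sequences are printed because reads must be divided between them: of 276 bases, 272 are identical (98.6%), and 89 of 92 codons give the same residue. Capitals mark the 4 bases that differ, in the sequences of GENCODE 29 (UQCRH at chr1:46303631-46316776, plus strand, and UQCRHL at chr1:15807169-15809348, minus strand).
UQCRH: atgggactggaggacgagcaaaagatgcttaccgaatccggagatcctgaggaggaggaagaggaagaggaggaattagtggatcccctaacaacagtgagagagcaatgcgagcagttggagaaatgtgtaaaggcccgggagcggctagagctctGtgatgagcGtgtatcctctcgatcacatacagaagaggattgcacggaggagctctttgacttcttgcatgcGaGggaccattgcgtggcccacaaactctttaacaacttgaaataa
UQCRHL: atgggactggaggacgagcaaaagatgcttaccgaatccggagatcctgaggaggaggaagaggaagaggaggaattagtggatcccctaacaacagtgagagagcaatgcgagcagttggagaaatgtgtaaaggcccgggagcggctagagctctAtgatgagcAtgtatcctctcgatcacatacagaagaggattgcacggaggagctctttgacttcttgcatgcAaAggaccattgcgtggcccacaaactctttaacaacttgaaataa

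With so few differing bases, the division of reads between the copies is uncertain. When the counts of pseudogenes and of UQCRHL and ATP5MGL were added to their parent genes, the number of called genes stayed at 38.

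Complex IV, cytochrome c oxidase, had the highest share of called genes, 10 of 13 tested, beside 14.3% of all tested genes called lower. The log2 fold change was −4.41 for NDUFA4 (SE 1.03, edgeR adjusted p = 0.0190) and −4.08 for COX6A1 (SE 1.03, edgeR adjusted p = 0.0223). NDUFA4 was at 3.32, 39.6 and 113 CPM in the Cas9 libraries, 11.7, 14.9 and 6.86 CPM in the Cre libraries and 312, 68.2 and 294 CPM in the Flpo libraries. The Cas9 values again ran from below the Cre range to above Flpo replicate 2. COX6A1, the form of subunit VIa found outside muscle, was at 42.4, 324 and 771 CPM in the Cas9 libraries, 102, 26.1 and 18.9 CPM in the Cre libraries and 1342, 373 and 855 CPM in the Flpo libraries. All Flpo values exceeded all Cre values, with a mean of 856 ± 484 CPM for Flpo against 48.9 ± 45.9 CPM for Cre (SD, n = 3).

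The COX6A1 promoter holds 1 match to the ETS motif CCGGAAG, on the opposite strand at −16, and is shown as an example of the 19 of 68 matched promoters with that motif (27.9%, against 10.7% of all promoters). The stretch lies at chr12:120438086-120438115 on the + strand of GRCh38.p14, with 26 of its 30 bases in an annotated COX6A1 exon of GENCODE 29, and capitals mark the motif.
COX6A1 match: ttccacttccgCTTCCGGcgctgcggcagt

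Complex IV subunits exist in alternative forms, and the forms known from lung, from heart and muscle or from testis were, except COX6B2, hardly found. COX4I2, COX6A2 and COX7A1 had no count in any library, COX7B2 had 1 count and COX8C had 5 in all, so none was tested. A count of 0 allows up to 3 counts, which is 0.340 CPM in Flpo replicate 1 and 14.0 CPM in Cre replicate 2. Their common counterparts were present. COX7A2 was at 34.1, 135 and 321 CPM in the Cas9 libraries, 63.8, 74.7 and 64.4 CPM in the Cre libraries and 411, 179 and 371 CPM in the Flpo libraries. Without overlap between the recombinase groups, it fell by 2.25 (SE 0.71, edgeR adjusted p = 0.0410). COX7B fell by 1.97 (SE 0.55, edgeR adjusted p = 0.0293) and COX6B1 by 2.49 (SE 0.75, edgeR adjusted p = 0.0364). COX4I1 and COX8A had log2 fold changes of −1.11 (SE 0.79, edgeR adjusted p = 0.296) and −2.45 (SE 0.94, edgeR adjusted p = 0.0747).

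COX6B2, the testis form of COX6B1, was the exception among the rare forms. Its level was 91.4, 54.5 and 49.7 CPM in the Cas9 libraries, 60.4, 74.7 and 81.5 CPM in the Cre libraries and 21.2, 85.6 and 16.0 CPM in the Flpo libraries. Flpo replicate 2 was the highest of the recombinase libraries and Flpo replicates 1 and 3 the lowest, and the gene was not called (log2 fold change 0.82, SE 0.62, edgeR adjusted p = 0.328). Without Flpo replicate 2 it was called higher in the Cre group, with a log2 fold change of 1.96 (edgeR adjusted p = 0.00889). COX6B2 shares exons with another gene on the same strand, so its count is uncertain. COX7A2L, which joins complexes III and IV, fell by 3.73 (SE 0.78, edgeR adjusted p = 0.0167), from 73.8, 24.8 and 74.4 CPM in the Flpo libraries to 5.36, 7.47 and 1.72 CPM in the Cre libraries, beside 5.82, 12 and 21.7 CPM in the Cas9 libraries. Flpo replicate 2 was again the lowest of its group, and no Cas9 value reached it.

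The ATP synthase consists of the catalytic F1 head, a peripheral stalk, a membrane ring of c subunits and smaller membrane subunits. Called genes numbered 1 of 5 in F1, 3 of 4 in the stalk, 1 of 3 among the c-ring genes and 4 of 7 tested among the others. All were lower in the Cre group, where 14.3% of all tested genes were called lower, and the count in F1 is near that share. ATP5F1B, the catalytic beta subunit, had the highest mean CPM of its complex, not corrected for length, at 109, 550 and 728 CPM in the Cas9 libraries, 262, 254 and 112 CPM in the Cre libraries and 3622, 668 and 3305 CPM in the Flpo libraries. Flpo replicates 1 and 3 stood far above the other 7, and Flpo replicate 2 lay below Cas9 replicate 3. ATP5F1B fell by 3.60 in Cre against Flpo (SE 0.92, edgeR adjusted p = 0.0229), and it took 0.0260% ± 0.0098 of counts in the Cre group against 0.179% ± 0.109 for Flpo (SD, n = 3).

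ATP5F1A, the alpha subunit that alternates with beta in the head, was at 180, 157 and 148 CPM in the Cas9 libraries, 164, 355 and 238 CPM in the Cre libraries and 461, 269 and 568 CPM in the Flpo libraries. Cre replicate 2 exceeded Flpo replicate 2, and the log2 fold change was −0.79 (SE 0.52, edgeR adjusted p = 0.263). ATP5F1D, the delta subunit of the central stalk, was at 226, 136 and 114 CPM in the Cas9 libraries, 226, 48.5 and 219 CPM in the Cre libraries and 82.3, 62.6 and 89.1 CPM in the Flpo libraries (log2 fold change 1.10, SE 0.57, edgeR adjusted p = 0.165). Its groups overlapped through Cre replicate 2, where 13.0 counts were found. The difference between ATP5F1A and ATP5F1B was not tested.

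In the peripheral stalk, which holds the head still while the ring turns, ATP5PF was at 4.15, 12.6 and 40.3 CPM in the Cas9 libraries, 6.82, 0 and 0.858 CPM in the Cre libraries and 119, 43.7 and 149 CPM in the Flpo libraries. All 3 Flpo values lay above the other 6, and the Cre libraries held 14.0, 0 and 1.0 counts. ATP5PF fell by 4.86 (SE 1.00, edgeR adjusted p = 0.0167), and its exons overlap those of GABPA on the opposite strand. ATP5PB, the b subunit, was at 23.3, 48.8 and 55.1 CPM in the Cas9 libraries, 29.7, 29.9 and 27.5 CPM in the Cre libraries and 283, 84.1 and 294 CPM in the Flpo libraries, again with all Flpo values on top. It fell by 2.93 (SE 0.59, edgeR adjusted p = 0.0167). ATP5IF1, the inhibitor that stops the enzyme from running backwards, was at 4.99, 115 and 280 CPM in the Cas9 libraries, 29.7, 14.9 and 3.43 CPM in the Cre libraries and 421, 146 and 320 CPM in the Flpo libraries, and it fell by 4.16 (SE 1.12, edgeR adjusted p = 0.0265).

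The c ring is encoded by ATP5MC1, ATP5MC2 and ATP5MC3, whose precursors differ but whose mature proteins are the same. ATP5MC1 was at 173, 137 and 161 CPM in the Cas9 libraries, 161, 41.1 and 106 CPM in the Cre libraries and 465, 154 and 432 CPM in the Flpo libraries, and ATP5MC2 had its highest values in Flpo replicates 1 and 3 as well, at 736 and 538 CPM. Their log2 fold changes of −1.74 (SE 0.60, edgeR adjusted p = 0.0543) and −1.42 (SE 0.56, edgeR adjusted p = 0.0804) were not called. ATP5MC3 was at 14.1, 40.2 and 96.2 CPM in the Cas9 libraries, 26.8, 119 and 26.6 CPM in the Cre libraries and 488, 101 and 384 CPM in the Flpo libraries. It fell by 2.59 (SE 0.85, edgeR adjusted p = 0.0475), although Cre replicate 2 lay above Flpo replicate 2. Against Cas9 the log2 fold change of ATP5MC3 was 0.09 for Cre and 2.68 for Flpo, and neither was called. The last 234 coding bases of each gene (GENCODE 29) are printed to show how far they can be told apart: all 78 codons, stop included, read alike in the 3 genes, while capitals mark the 58 positions where the bases differ.
ATP5MC1: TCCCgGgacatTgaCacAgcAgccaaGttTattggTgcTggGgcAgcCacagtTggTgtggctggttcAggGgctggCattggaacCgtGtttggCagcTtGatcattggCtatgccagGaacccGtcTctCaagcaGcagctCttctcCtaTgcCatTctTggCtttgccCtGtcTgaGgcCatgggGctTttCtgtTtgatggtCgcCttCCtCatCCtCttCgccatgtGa
ATP5MC2: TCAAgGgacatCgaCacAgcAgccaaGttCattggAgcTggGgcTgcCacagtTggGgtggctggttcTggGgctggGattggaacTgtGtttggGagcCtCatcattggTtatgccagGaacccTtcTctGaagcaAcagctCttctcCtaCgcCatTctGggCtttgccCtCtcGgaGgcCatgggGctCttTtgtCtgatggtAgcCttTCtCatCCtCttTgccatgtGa
ATP5MC3: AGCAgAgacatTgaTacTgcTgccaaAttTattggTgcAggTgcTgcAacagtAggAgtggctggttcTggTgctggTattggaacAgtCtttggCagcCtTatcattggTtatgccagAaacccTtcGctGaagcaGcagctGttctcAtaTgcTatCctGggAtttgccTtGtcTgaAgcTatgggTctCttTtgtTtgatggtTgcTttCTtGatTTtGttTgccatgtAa

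ATP5MC1 and ATP5MC2 differ at 27 of these positions, and ATP5MC3 differs from each at 47. ATP5S was the only gene of the ATP synthase list besides ATP5F1D with a log2 fold change above 0. It was at 440, 217 and 222 CPM in the Cas9 libraries, 261, 258 and 475 CPM in the Cre libraries and 170, 157 and 96.3 CPM in the Flpo libraries. The lowest Cre value exceeded the highest Flpo value, and the log2 fold change was 1.23 (SE 0.54, edgeR adjusted p = 0.106). Its exons overlap 3 genes on the opposite strand.

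**Figure D3:**
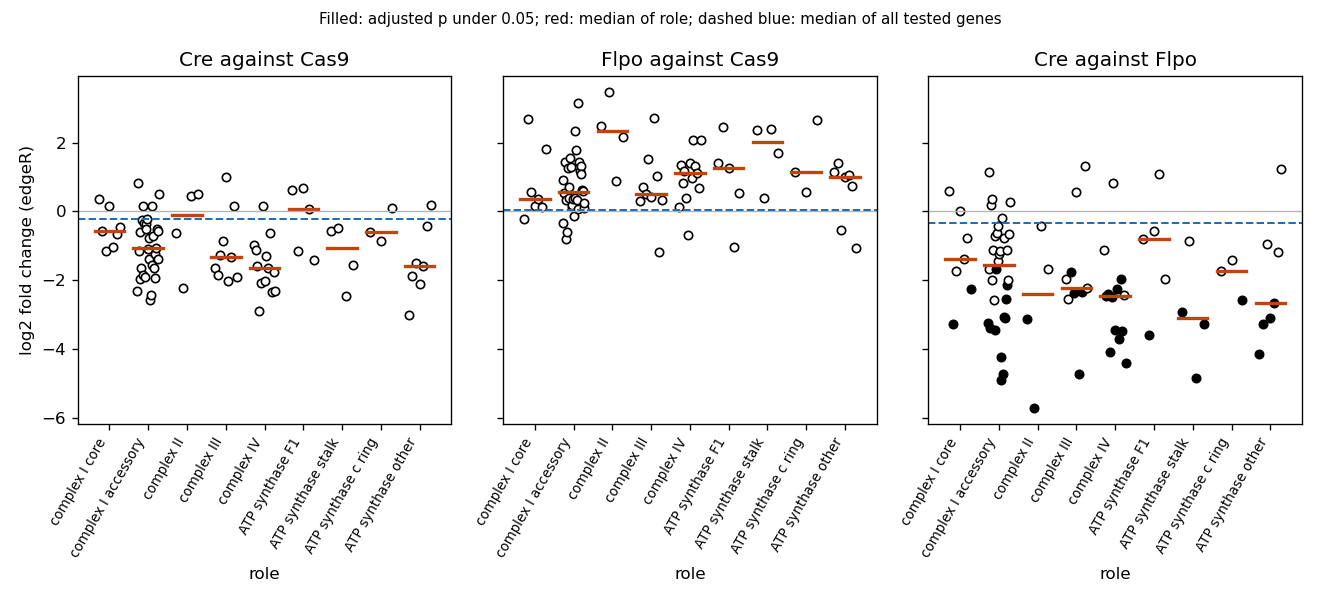
Log2 fold change (edgeR) of each tested gene by role in the 3 comparisons, with filled points for an adjusted p under 0.05, a red line for the median of the role and a dashed line for the median of all 11905 tested genes. Filled points occur only in Cre against Flpo, where 38 of 82 genes are lower, beside 14.3% of all tested genes. Without TMM factors 23 are lower and 4 higher, beside 7.06% and 17.1%.

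No gene was called in Cre against Cas9, where none of all 11905 tested genes was called either. At an unadjusted p under 0.05, 20 of the 82 genes were lower in the Cre group and 0 were higher, where 6.03% and 1.35% of all tested genes were. The median log2 fold change was −1.10, beside −0.22 for all tested genes, and 16 of the 82 were above 0, against 41.5% of all. Complex IV had the lowest median, at −1.64 over 13 genes, and F1 the highest, at 0.08 over 5. Only NDUFS1 and NDUFV3 had groups without overlap, both higher in the Cre group, where 3.46% of all tested genes were higher and 6.37% lower without overlap (9.83% in all). The genes with the smallest p were COX6A1 (−2.91, SE 0.98), COX6B1 (−2.09, SE 0.74) and ATP5IF1 (−3.02, SE 1.08), all with an edgeR adjusted p of 0.619. DESeq2 also called 0 of these genes, with 30 lower and 1 higher at an unadjusted p under 0.05, and limma voom with sample quality weights called 44 lower and 3 higher, where it called 19.0% and 14.3% of all tested genes.

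No gene was called in Flpo against Cas9 either, where 0.227% of all tested genes were called (0.218% higher and 0.00840% lower). At an unadjusted p under 0.05, 22 genes were higher and 1 (UQCRHL) was lower in the Flpo group, where 13.2% and 6.78% of all tested genes were. The median log2 fold change was 0.86, beside 0.05 for all tested genes, and 72 of the 82 were above 0, against 51.7% of all. The groups did not overlap for 15 genes higher in the Flpo group and 4 lower, among all tested genes 12.8% and 12.2%. The 4 were ATP5F1D, ATP5S, NDUFA13 and UQCRHL. The genes with the smallest p were ATP5PB (2.37, SE 0.57, edgeR adjusted p = 0.0692), SDHB (3.49, SE 0.84, edgeR adjusted p = 0.0692) and SDHD (2.18, SE 0.57, edgeR adjusted p = 0.0824). SDHB passed the low-count filter only through the Flpo libraries. Without Flpo replicate 2, 19 genes were called higher and 1 lower, beside 10.9% and 10.4% of all tested genes, and DESeq2 on all libraries called 12 higher, beside 5.39%. The Cre and Flpo comparisons share the Cas9 libraries, so their values are not independent.

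Tested over all 3 groups at once, 15 of the 82 genes differed (edgeR, adjusted p under 0.05), where 9.51% of all tested genes were called. Among them were SDHA, SDHB and SDHD, UQCRFS1, NDUFA8, NDUFB3, NDUFB4 and NDUFB6, NDUFA4, COX7A2L, ATP5F1B, ATP5PB, ATP5PF and ATP5PO. SDHB, which like NDUFB3 passed the low-count filter only through the Flpo libraries, had the smallest adjusted p, at 0.0147. This count ran from 0 without Cas9 replicate 2 or Flpo replicate 1 to 42 without Flpo replicate 2, beside 0.0723%, 0.233% and 33.3% of all tested genes in these 3 fits.

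As a share of all counts, without scaling between libraries, the 88 genes took 0.794%, 1.22% and 1.45% in Cas9 replicates 1, 2 and 3, 1.07%, 0.517% and 0.685% in the Cre libraries and 1.85%, 0.875% and 1.69% in the Flpo libraries. Cre replicate 1 lay above Flpo replicate 2, so the recombinase groups overlapped on this scale, and in all 3 groups the lowest share was found in the smallest library. The Cre group had the lowest mean share for complex IV, 0.0855% ± 0.0523 (SD, n = 3), beside 0.271% ± 0.0976 for Flpo. Complex II genes did not follow the order of library totals, with 0.0408% in the smallest library, Cre replicate 2, against 0.0208% in Cas9 replicate 3 and 0.0249% in Flpo replicate 2. Their highest shares were in Flpo replicates 1 and 3, at 0.0564% and 0.0814%. Pseudogenes of these families, 160 symbols in all, took at most 0.0180% of any library.

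**Figure D4:**
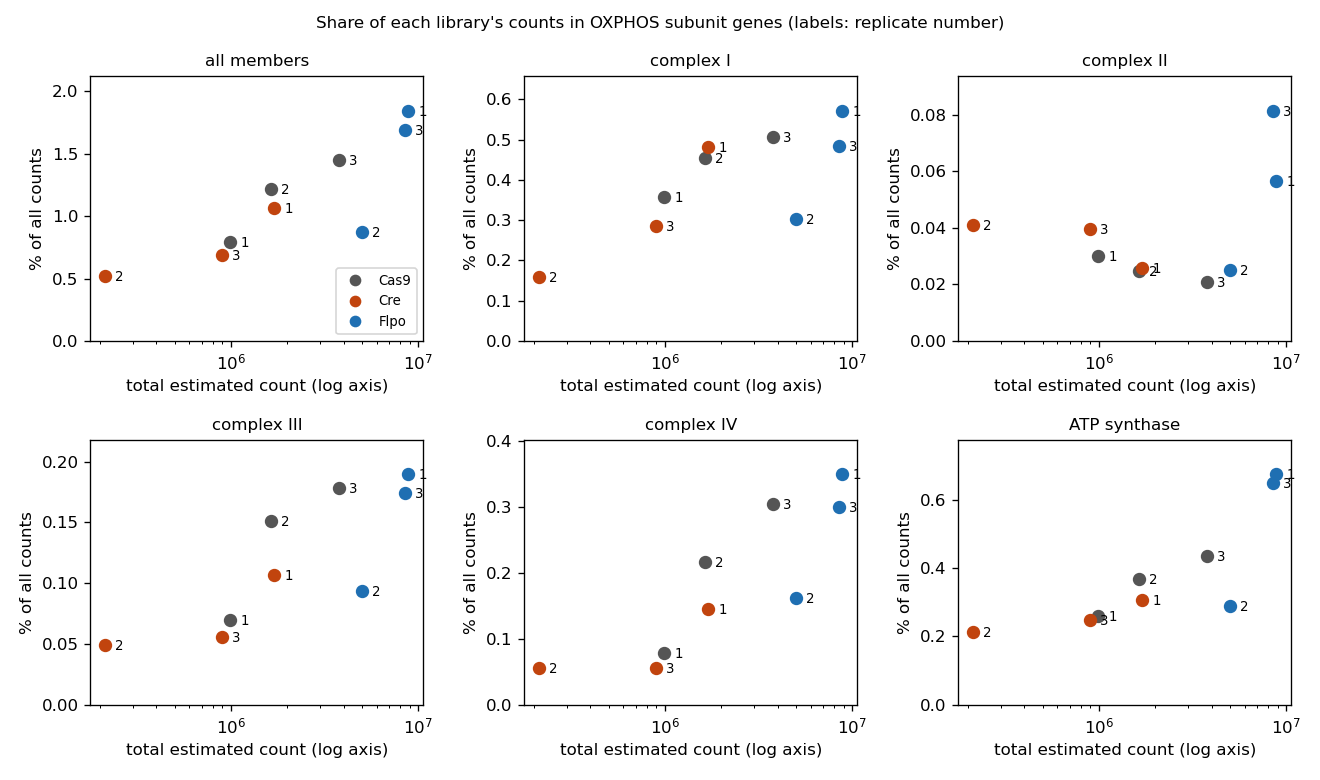
Share of each library's counts (%) taken by all 88 genes and by each complex, against the library's total estimated count on a log axis, with 1 point per library labelled by replicate number. For all genes together, Cre replicate 2 is lowest at 0.517% and Flpo replicate 1 highest at 1.85%, and Flpo replicate 2, at 0.875%, lies below Cas9 replicates 2 and 3 despite its larger total.

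The unscaled counts showed how unevenly single genes followed depth. SDHB and NDUFB3 passed the low-count filter only through the Flpo libraries, where they were high. SDHB had 267 times as many counts on average in the Flpo as in the Cre libraries. NDUFB3 had 168 times and UQCRFS1 158 times, against 7.93 times for the library totals. ATP5S had 1.90 times, UQCRHL 1.67 times, ATP5F1D 1.75 times and NDUFA10 2.17 times. The lowest and highest counts of ATP5S in any library were 68.7 and 984, while those of SDHB were 1.0 and 1034. Of the markers, COL1A2, a fibroblast collagen, had 209 to 1052 counts over the 9 libraries, with 1052 in the smallest library.

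**Figure D5:**
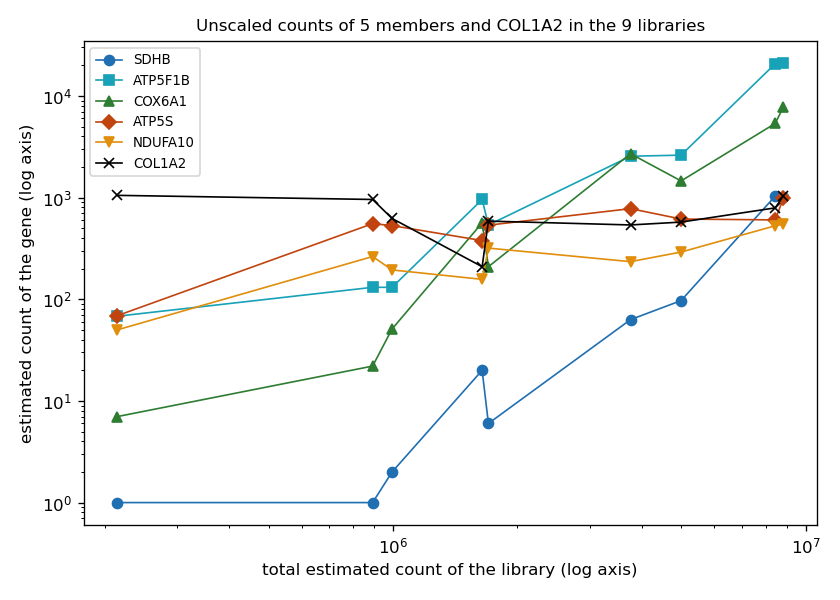
Estimated counts of 5 genes of oxidative phosphorylation and of the fibroblast marker COL1A2 in the 9 libraries, against the library's total, both on log axes. SDHB runs from 1.0 to 1034 counts over the range of totals, whereas ATP5S runs from 68.7 to 984 and COL1A2 from 209 to 1052.

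The differences varied with transcript length, among these genes as among all tested genes. With longest annotated transcripts of up to 1000 bases, 13 of 25 genes were called lower between Cre and Flpo (median −2.25), where 30.4% of all tested genes of that length were (median −1.59). From 1000 to 2000 bases it was 12 of 25 (median −2.47), against 27.5% of all (median −1.27), and from 2000 to 4000 bases 10 of 21 (median −1.96), against 16.3% (median −0.61). Above 4000 bases it was 3 of 11 (median −0.43), against 7.75% (median 0.06). The part of length in the result was not tested beyond these values. Genes with a pseudogene in the table were called in 26 of 46 cases and genes without one in 12 of 36. Where every library's value was whole, within 0.01, 12 of 21 genes were called, and elsewhere 26 of 61. Of all tested genes, 14.3% were called lower, and they were not split in these ways. Whether pseudogenes or whole values go with a call was therefore not tested.

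The third motif searched in the promoters was that of YY1, a factor that binds near many start sites. The YY1 motif AAGATGGC was found in 11 of 68 promoters (16.2%), against 3.03% of all promoters, searched on both strands like the others. The ETS motif ends with the letters AAG with which the YY1 motif begins, so that a match to each can share these bases. Between Cre and Flpo, 8 of 15 tested genes with an NRF1 match were called, with a median of −2.38, and 20 of 50 without one, with a median of −1.85. With an ETS match it was 8 of 19 (median −2.35) and without one 20 of 46 (median −1.85), and with a YY1 match 6 of 11 (median −2.38) and without one 22 of 54 (median −1.96). Of all tested genes, 14.3% were called lower. Promoters of 20 genes, among them ATP5F1B, NDUFA4 and SDHC, were not matched.

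Compared between genes, levels were set per kilobase of the transcript with the longest coding sequence. In the Flpo group the highest were COX6A1 at 1497 ± 847 CPM per kilobase, ATP5MF at 1461 ± 658 and ATP5F1B at 1377 ± 882 (SD, n = 3), which did not differ beyond their spread. In the Cas9 group ATP5ME, a small membrane subunit of the ATP synthase, was highest at 991 ± 280 CPM per kilobase. In the Cre group the complex I subunit NDUFA13 was highest on average at 461 ± 473 CPM per kilobase, a spread as large as its mean. COX6A1 ranked 1 of 82 in the Flpo group, 4 in the Cas9 group and 23 in the Cre group.

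Other genes of the pathway were read from lists of assembly factors, carriers, regulators and citric acid cycle enzymes. Of 86 tested genes on these lists and the mitochondrial one, 19 were called lower in the Cre group and 0 higher (edgeR; 2 higher at an unadjusted p under 0.05), while DESeq2 called 27 lower and 1 higher, and voom 46 lower and 13 higher. Of all tested genes, edgeR called 14.3% lower and 6.17% higher, DESeq2 17.8% and 9.52%, and voom 38.8% and 28.8%. Cytochrome c, the carrier between complexes III and IV, was lower: CYCS fell by 1.91 (SE 0.60, edgeR adjusted p = 0.0415) and the complex III subunit CYC1 by 3.61 (SE 0.78, edgeR adjusted p = 0.0172). Assembly factors were called lower in 4 of 16 cases for complex I, 0 of 3 for complex II, 1 of 6 for complex III, 4 of 23 for complex IV and 2 of 4 for the ATP synthase, of which those for complexes III and IV are near the share of all tested genes. Named examples were NDUFAF4 (−3.67) and TIMMDC1 (−3.44) for complex I, UQCC2 (−2.92) for complex III and the copper chaperone COX17 (−2.55) for complex IV. TMEM70, an assembly factor of the ATP synthase, had no count in any Cre library and 23.2 ± 13.8 CPM in the Flpo group (SD, n = 3), which is at least 27.0-fold lower against a floor of 3 counts over the Cre group. It passed the low-count filter only through the Flpo libraries, as did NDUFAF4.

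Among the regulators, 2 of 6 tested were called lower, where 14.3% of all tested genes were. TFAM, which packages and transcribes the mitochondrial genome, was at 9.97, 26.4 and 29.1 CPM in the Cas9 libraries, 8.28, 0 and 4.29 CPM in the Cre libraries and 68.0, 39.4 and 70.9 CPM in the Flpo libraries. It fell by 3.47 (SE 0.71, edgeR adjusted p = 0.0167), without overlap between Cre and Flpo. ESRRA, a nuclear receptor that acts on many of these genes, had 2 counts in all 3 Cre libraries together and 316 in the Flpo libraries, and it too passed the low-count filter only through the Flpo libraries. NRF1 itself had a log2 fold change of −0.85 (edgeR adjusted p = 0.436) and YY1 one of 0.65 (edgeR adjusted p = 0.345). In the citric acid cycle, 4 of 13 enzymes were called lower, beside 14.3% of all tested genes, among them MDH2 (−4.26) and DLD (−2.96).

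The 13 subunits encoded by the mitochondrial genome were read separately. None was called in Cre against Flpo (edgeR; 0 at an unadjusted p under 0.05), DESeq2 called 2 lower and voom 5 lower, with an edgeR median log2 fold change of −0.53 and 4 of 13 above 0. They took 2.91%, 5.58% and 7.77% of counts in Cas9 replicates 1, 2 and 3, 3.01%, 11.2% and 4.45% in the Cre libraries and 7.63%, 4.01% and 6.49% in the Flpo libraries. Cre replicate 2, lowest for the nuclear genes, was highest for the mitochondrial ones. Whether the nuclear and mitochondrial genes differed in their response was not tested.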

How the data were processed

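Per the labels' protocols, HEK293 RNA was taken up in TRIzol and sequenced from TruSeq RNA libraries. The values the authors deposited are estimated counts by gene symbol, with 9 columns of libraries. Salmon 0.14.1 and the build hg38 are named per the submitters' processing notes, and the counting settings are not given in the sources used here. Estimated counts were rounded to whole numbers for testing. All 9 libraries, with groups from the labels, were fitted in edgeR 4.0.16 (R 4.3.3) with TMM factors, a filter on low counts (minimum count 10, minimum total 15), the two-sided quasi-likelihood test and Benjamini-Hochberg adjustment over 11905 genes, called at an adjusted p under 0.05. The fit was tested on simulated data. The SE of a log2 fold change was its size over the root of the F statistic. Floors of 3 counts cover counting error only, and depth ran from 213907 to 8833491 counts.

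The members and lists were chosen with earlier results of these data known. Genes were named by rule: up to 10 called members with the largest change per comparison, the member with the highest mean CPM in each complex, the complex II genes and alternative forms, the 3 smallest p where none was called, up to 3 called genes per pathway list, ATP5IF1 and the most abundant pseudogene symbol. Other called members, and those above 0 or without overlap, were named after their values were seen. Alternatives were DESeq2 1.42.0 (size factors and test), no TMM factors, other filters, only 2 groups, a replicate block, depth as a covariate, thinning to the smallest library, limma 3.58.1 voom with quality weights, each library left out and, chosen after seeing the data, copies added to their parents. Gene models were GENCODE 29, which matched 88 of 88 members, and the RefSeq promoters (GRCh38.p14) matched 68. A few results on single genes are not reported here.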

Additional observations from a re-analysis of the deposited data

Results flagged for a closer look

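The comparison of Cre with Flpo is itself the test of whether the 2 recombinase groups differ from Cas9 by different amounts. The Cas9 level cancels out of the difference tested. By that test 38 of the 82 genes had differences from Cas9 that differed between the Cre and the Flpo group (edgeR, adjusted p under 0.05), which is why they are listed here. Of all tested genes, 20.5% were called by it in either direction. In SDHB the log2 fold change against Cas9 was −2.24 for Cre and 3.49 for Flpo. SDHB passed the low-count filter only through the Flpo libraries, where it was high, and so had to differ. The count of 38 fell to 0 without Cre replicate 2, Cre replicate 3 or Flpo replicate 1, as it did among all tested genes. The Cas9 libraries still entered the filter, the scaling and the estimate of spread. Without Cas9 replicate 2 the count was 21, beside 7.06% of all tested genes. Thinned to the smallest total, 35 of 73 genes were called lower, beside 14.3% of all tested genes.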

How the results depend on the processing

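Between Cre and Flpo, the 38 genes called lower became 23 without TMM factors (4 higher), beside 7.06% lower and 17.1% higher of all tested genes. With at least 10 counts in every library, 19 of 29 tested were called lower, beside 18.5%. With limma voom it was 66 (5 higher), beside 38.8% lower and 28.8% higher of all tested genes. With the log2 total as a covariate it was 0, as among all tested genes. DESeq2 called 47 lower and 3 higher, beside 17.8% and 9.52%. Leaving out 1 library gave 0 to 50 lower and 0 to 2 higher, beside 0% to 24.4% and 0% to 19.8% of all tested genes. The median of these genes minus that of all tested genes, −1.64, became −0.77 without a filter, −0.41 with the covariate and −2.34 with voom. In Cre against Cas9, 2 were called lower without a filter, beside 0.173% of all tested genes. There voom called 44 lower and 3 higher, beside 19.0% and 14.3%, and the median difference of −0.88 became −0.26 with the covariate. In Flpo against Cas9, DESeq2 called 12 higher and no filter 13, beside 5.39% and 3.89%. There voom called 57 higher and 3 lower, beside 31.3% and 29.8%, and the median difference of 0.81 became 0.13 with the covariate. Leaving out 1 library gave 0 to 19 higher and 0 to 1 lower, beside 0% to 10.9% and 0% to 10.4% of all tested genes. For any difference among the groups, the 15 genes became 7 without TMM factors, 38 with DESeq2, 40 without a filter and 76 with voom. Of all tested genes, 8.09%, 19.7%, 12.3% and 79.6% were called in these fits. With the covariate it was 0, as among all tested genes (9 of these genes at an unadjusted p under 0.05). With 1 library left out it was 0 to 42, beside 0.0723% to 33.3% of all tested genes. With the covariate, 6 of the 38 called genes changed direction, up to 1.10 in NDUFC1, and thinning to the smallest total changed none of the 33 tested. Among the genes named by rule, directions reversed with the covariate in COX4I1 (1.83), COX6B1 (0.19), COX6B2 (−0.33), COX8A (1.39) and UQCRQ (1.34), and without TMM factors in SDHC (0.37). The causes were not tested. Depth limits the Cre values most, where 3 counts are 14.0 CPM in replicate 2.

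A fit with a replicate block gave 29 genes called lower in Cre against Flpo and 7 for any difference, beside 9.01% and 3.58% of all tested genes. The correlations of same-numbered deviations were 0.37, 0.19 and −0.21 for Cre and Flpo. They were −0.48, −0.14 and −0.37 for Cre and Cas9, and −0.55, −0.26 and 0.53 for Flpo and Cas9. With 3 libraries per group of unequal depth, they cannot show whether the numbers pair the samples.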
